A study of Mus musculus with 12 samples.

Results

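Ribosome-associated RNA was compared with total RNA in mouse embryonic fibroblasts (MEF) in which the huntingtin gene had been deleted. The comparison used 6 of the 12 libraries of the series: 3 of ribosome-associated RNA and 3 of total RNA, chosen by their labels alone and paired by replicate number, because both RNAs of a number came from 1 cell suspension. All 12 libraries came from primary cultures of E13.5 embryos with the floxed genotype HTTfl/fl. The HTT-deleted cells carried a lentiviral vector for a Cre recombinase with GFP, and the control cells, used here only for side values, carried a vector for H2B-eGFP. Cells were harvested 7 days after transduction, 1 of 15 parts of each suspension was kept for total RNA, and the rest went to ribosome purification. Every RNA sample had a quality number above 9, and stranded libraries were made from 250 ng. Replicates were defined by the submitters as different primary cultures or independent passages, so some may share a culture of origin, and the vector was given to a whole culture rather than to a selected clone.

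A ribosome pellet holds the RNAs that are being translated, together with anything that sediments with ribosomes. Messages that recruit many ribosomes for their amount are enriched in it, whereas RNAs that stay in the nucleus, such as many long noncoding RNAs and transcripts that still hold introns, are depleted from it. The ribosome to total ratio is relative: each library was scaled to its own total, so a value above 0 on the log2 scale means a larger share of the ribosome-associated library than of the total library, not more molecules per cell.

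The deletion was read first from the targeted gene, counted over its whole length. Htt (ENSMUSG00000029104, chromosome 5, 34761740 to 34912534, plus strand, GRCm38), which encodes the huntingtin protein, stood at 15.7, 10.8 and 10.9 CPM (a gene's counts scaled to the size of the library) in the total libraries of HTT-deleted cells 1 to 3 and at 12.9, 5.09 and 4.01 CPM in the ribosome-associated libraries. In control cells, scaled separately, it stood at 59.0, 45.6 and 63.1 CPM in total RNA and at 22.5, 19.5 and 31.7 CPM on ribosomes, so every HTT-deleted library was below every control library of the same kind. The remaining Htt RNA was lower on ribosomes in each HTT-deleted pair, by -0.28, -1.08 and -1.44 on the log2 scale. The fold change of -0.92 ± 0.27 (n = 3 pairs) did not pass the test (adjusted p = 0.211). Here and below, ± is a standard error worked back from the test statistic, whose error term borrows from other genes. It is not the spread of the pairs themselves. Without pair 1 the Htt fold change was -1.25 and passed. In control cells the same ratio was -1.19.

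One library stood apart before any gene was considered. The 6 libraries held 17745092 to 27070187 counts in genes, and the total library of replicate 1, at 17745092, was close in depth to the other total libraries. Its transcripts differed from the mean of the other 2 total libraries. Genes with the shortest coding sequences (the lowest decile) had a median log2 difference of 0.79 and those with the longest (the highest decile) one of -0.77. Total library 2, set against the other 2 in the same way, had -0.41 and 0.39, and total library 3 had -0.37 and 0.40. The reference for each of these includes total library 1, so their values mirror those of library 1 and are not separate length trends. Mitochondrial transcripts made up 0.854% of the counts of total library 1. They made up 1.84% and 1.74% in the other total libraries and 1.97% to 2.03% in the ribosome-associated ones. The log2 ratios of pair 1 were almost unrelated to those of the other pairs across the 14627 tested genes, with Spearman's rho of 0.03 with pair 2 and 0.08 with pair 3, while pairs 2 and 3 had a rho of 0.77 with each other. Pairs 2 and 3 had the same sign for 82.9% of genes, pairs 1 and 2 for 49.1%, and pairs 1 and 3 for 50.5%. The 3 control pairs, which share no library with these, had rho values of 0.73 to 0.79 with pairs 2 and 3 and of -0.04 to 0.18 with pair 1. These correlations run across genes, which are not independent replicates, and are given as descriptions. Results are therefore shown pair by pair, and with and without pair 1.

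**Figure D1:**
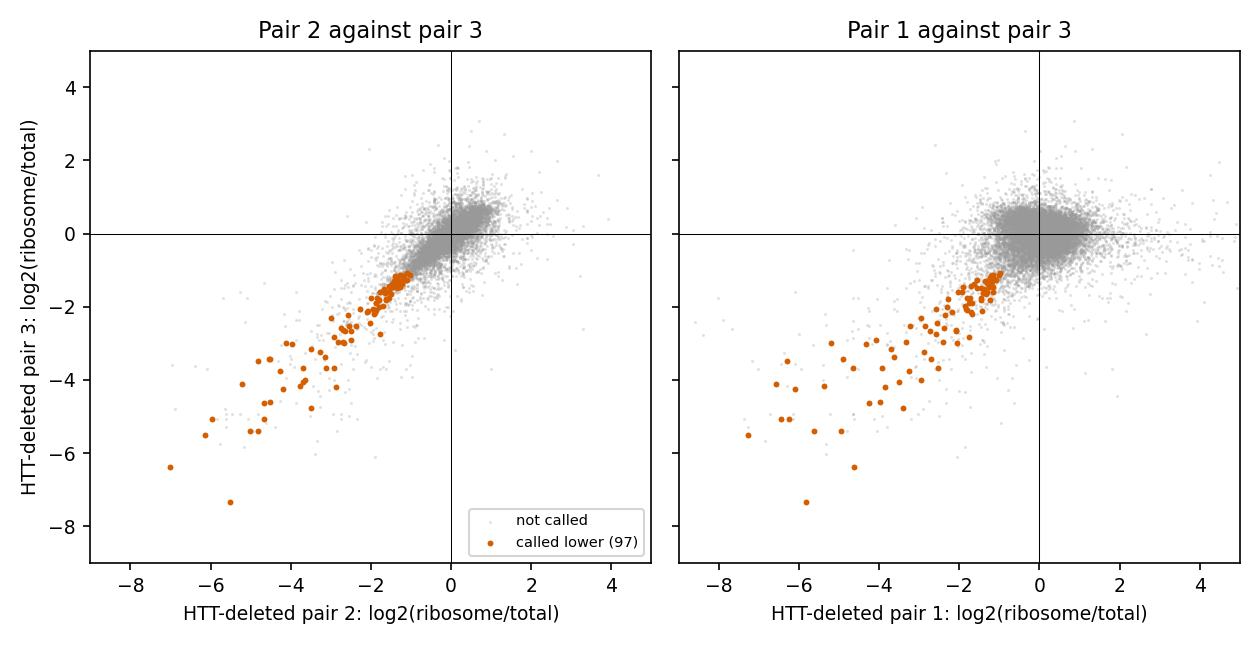
Each point is 1 of 14627 genes, placed by its log2 ribosome to total ratio in pair 3 (vertical axis) and in pair 2 (left) or pair 1 (right), with the 97 genes that passed the test in orange. Most genes lie along a diagonal on the left (rho 0.77) and form a round cloud on the right (rho 0.08), whereas the orange points lie below 0 in all pairs.

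With all 3 pairs, 97 genes were lower on ribosomes, which is 0.663% of the 14627 tested, and 0 genes (0%) were higher, by edgeR's quasi-likelihood test with the replicate number as a block and an adjusted p under 0.05. Among all tested genes, 2353 had an unadjusted p under 0.05, the lowest adjusted p was 0.0234, and the lowest for a gene above 0 was 0.0833. The 97 genes had log2 fold changes of -1.05 to -7.66, with a median of -1.93, and each was lower in all 3 pairs. In each of the 97 the highest ribosome-associated value was below the lowest total value, a separation in either direction that 2963 of all tested genes (20.3%) also showed. The number of calls rested on the set of genes tested: with at least 5 CPM in 3 libraries required, 69 of the 97 were tested and 1 passed, although all 69 were still below 0. By DESeq2, 24 genes were higher and 538 lower. Leaving out pair 1 gave 4149 genes higher (27.7%) and 4184 lower (27.9%) of 14981, all 97 among the latter, but that fit has 1 residual degree of freedom per gene and takes its error almost wholly from the other genes.

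**Figure D2:**
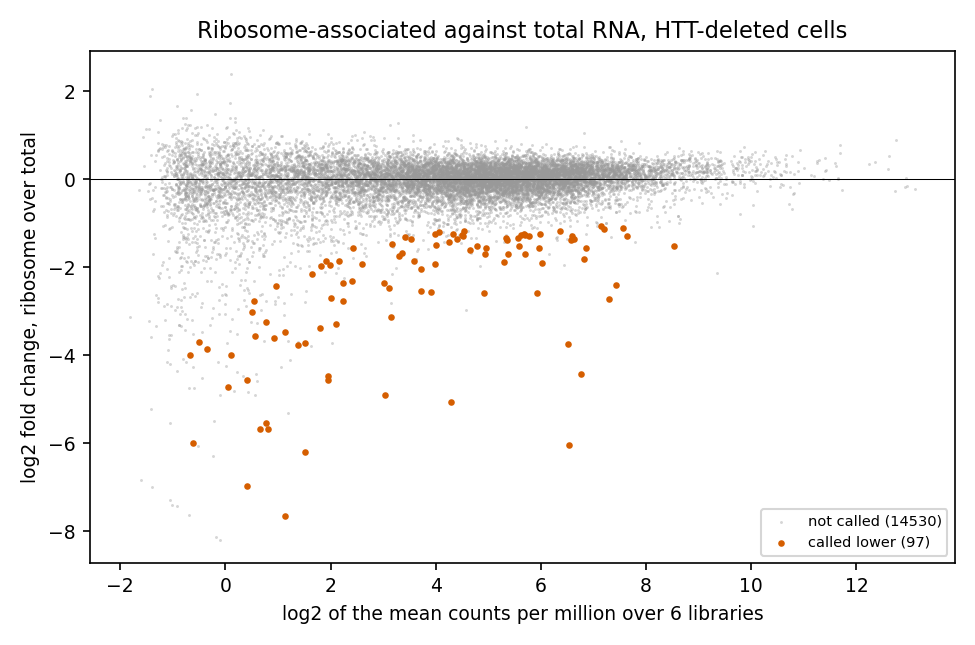
Each point is a tested gene, with the log2 of its mean CPM over the 6 libraries on the horizontal axis and the fitted log2 fold change of ribosome-associated over total RNA on the vertical axis. The 97 genes that passed (orange) all lie below 0, from -1.05 to -7.66, and span low and high levels.

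Long noncoding RNAs that act in the nucleus were among the genes with large falls. Xist coats and silences 1 X chromosome in female cells, Kcnq1ot1 silences an imprinted cluster in cis, and Meg3 and Mirg are made from the imprinted Dlk1-Dio3 region, Mirg carrying a large group of microRNAs. All gene lists here were chosen with earlier results of these data known, so their shares are descriptions. Of the 30 nuclear-retained and imprinted noncoding RNAs listed, 24 were tested, 5 fell (0.663% of all tested genes were called lower) and 0 rose. The list median was -1.26 against 0.03 over all tested genes. Of the 24, 20 had 1 sign in all pairs, as did 6026 of all 14627 tested genes. The list medians of pairs 1 to 3 were -1.31, -1.24 and -1.11, so here pair 1 did not stand apart, and in control cells the list median was -1.08.

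Kcnq1ot1 (ENSMUSG00000101609, chromosome 7, 143203458 to 143296549, minus strand) stood at 42.0, 39.6 and 32.0 CPM in total RNA and at 1.34, 1.38 and 0.742 CPM on ribosomes. Every ribosome-associated library was far below every total library, and the log2 fold change was -5.06 ± 0.20 (adjusted p = 0.0234), the lowest p of any gene. It was the 1 gene that also passed under the stricter filter on low counts (adjusted p = 0.0361). Its span overlaps Kcnq1 on the other strand, and whether reads were counted by strand was not stated in the labels or notes read here.

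Xist (ENSMUSG00000086503, chromosome X, 103460366 to 103483254, minus strand) varied between cultures in total RNA, at 67.2, 324 and 161 CPM, yet on ribosomes it stood at 2.68, 2.46 and 1.93 CPM. The groups did not overlap, and the log2 fold change was -6.05 ± 0.55 (adjusted p = 0.0403). Meg3 stood at 267, 216 and 135 CPM in total RNA and at 6.38, 15.8 and 7.49 CPM on ribosomes (-4.42 ± 0.37, adjusted p = 0.0403), and Mirg at 19.8, 17.2 and 10.7 against 1.16, 3.05 and 1.41 CPM (-3.12 ± 0.35, adjusted p = 0.0471, and 0.0521 with upper quartile scaling). Both were highest in total library 1.

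Malat1 and Neat1, which mark nuclear speckles and paraspeckles and were looked up after their values had been seen, were below 0 in every pair without passing. Malat1 stood at 1861, 833 and 560 CPM in total RNA and at 272, 188 and 207 CPM on ribosomes, with a log2 fold change of -2.12 ± 0.29 (adjusted p = 0.0634). Neat1 had -0.91 ± 0.13 (adjusted p = 0.0674). H19, an imprinted noncoding RNA that is largely cytoplasmic, had the opposite sign: 1939, 2080 and 3386 CPM in total RNA and 3837, 3339 and 5274 CPM on ribosomes, a ratio of 0.77 ± 0.17 that did not pass (adjusted p = 0.135).

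Small noncoding RNAs were mostly too rare in these libraries to test: 2 of 20 listed genes passed the filter. Rn7sk, the 7SK RNA that holds the elongation factor P-TEFb inactive in the nucleus, was lower on ribosomes (log2 fold change -3.57 ± 0.40, adjusted p = 0.0471, and 0.0686 without the replicate block). It had 147 counts in the 3 total libraries and 17 in the ribosome-associated ones, a depth-scaled ratio of 11.5 (exact 95% interval 6.96 to 20.3, covering counting error only). Of the 17 snoRNA host genes tested, 1 fell, against 0.663% of all tested genes. It was Snhg17, at 26.5, 29.9 and 26.9 CPM in total RNA and at 9.57, 11.7 and 9.61 CPM on ribosomes (-1.44 ± 0.14, adjusted p = 0.0403). The list was mixed, with pair medians of -0.94, 0.26 and -0.02. Without pair 1, 8 of its genes were higher and 4 lower, against 27.7% and 27.9% over all genes.

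**Figure D3:**
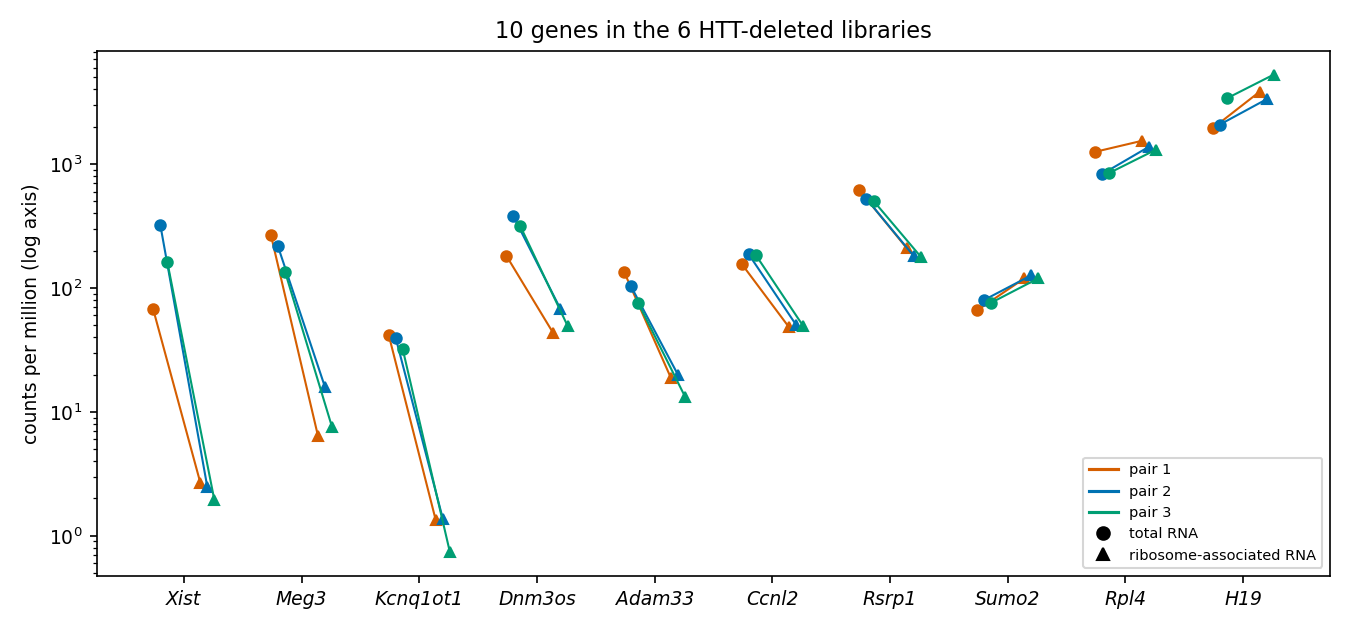
CPM (log axis) of 10 genes in the 6 HTT-deleted libraries, with total RNA as circles, ribosome-associated RNA as triangles, and a line and colour for each pair. Xist, Meg3, Kcnq1ot1, Dnm3os, Adam33, Ccnl2 and Rsrp1 are lower on ribosomes in all 3 pairs, and Sumo2, Rpl4 and H19, which did not pass the test, are higher in all 3.

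By gene class, 53 of 13117 protein-coding genes fell (0.404%), 24 of 815 long noncoding genes (2.94%) and 16 of 185 gene models of the GENCODE class TEC (8.65%), which are transcribed regions still awaiting experimental evidence. TEC models had a median log2 fold change of -1.05, and long noncoding genes one of -0.31. Of the 16 TEC models that fell, 13 lie inside a protein-coding gene on the same strand, as do 80 of all 185 tested, so reads from introns of the host would be counted there. Mir5125, annotated inside Srrm2 on the same strand, shares this limit: it stood at 4.75, 8.12 and 9.44 CPM in total RNA and at 0.277, 0.334 and 0.371 CPM on ribosomes (-4.47 ± 0.26, adjusted p = 0.0374).

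Protein-coding genes that fell included a group of splicing regulators. CLK kinases phosphorylate the SR proteins that guide splice-site choice, and their own transcripts, like those of several SR and cyclin L genes, are known to keep introns and wait in the nucleus. The list of such genes was also chosen with earlier results of these data known, so its shares are descriptions. Of 39 listed genes of this kind, 38 were tested, 7 fell (against 0.663% of all tested genes) and 0 rose, and the list median was -0.73. The sign was the same in all pairs for 34 of 38, against 6026 of all 14627 tested genes. In 34 the groups did not overlap, against 20.3% of all genes. The pair medians were -0.55, -0.81 and -0.81. Without pair 1, 36 were lower and 2 higher, against 27.9% lower and 27.7% higher over all genes. In control cells 36 were lower and 1 higher, against 25.9% and 24.3%, with a median of -0.78.

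Ccnl2, which encodes cyclin L2, a partner of the splicing kinases, stood at 156, 187 and 184 CPM in total RNA and at 48.5, 50.7 and 49.6 CPM on ribosomes. The replicates were tight in both fractions, and the log2 fold change was -1.82 ± 0.13 (adjusted p = 0.0403). Clk1 stood at 134, 155 and 141 against 56.5, 56.4 and 54.1 CPM (-1.36 ± 0.13, adjusted p = 0.0403). Pnisr (-1.56), Srsf11 (-1.29), Clk4 (-1.27), Ccnl1 (-1.25) and Tia1 (-1.24) were the other members that fell. Of the 4 members above 0, Tra2b, a splicing activator, had 0.23 ± 0.12 and did not pass (adjusted p = 0.439), and Mat2a had the highest value, 0.50 (adjusted p = 0.735). Outside the list, Rsrp1, an arginine and serine rich protein gene, stood at 616, 524 and 504 against 211, 182 and 179 CPM (-1.52 ± 0.13, adjusted p = 0.0403), and Arglu1 (-1.37) fell as well.

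Other coding genes with large falls were of mixed function. Adam33, a membrane-bound metalloprotease of mesenchymal cells, stood at 135, 103 and 75.9 CPM in total RNA and at 18.6, 19.8 and 13.2 CPM on ribosomes (-2.59 ± 0.16, adjusted p = 0.0374). Tnfrsf25, a death-domain receptor, stood at 5.98, 7.12 and 5.88 against 0.462, 0.793 and 0.557 CPM (-3.39 ± 0.24, adjusted p = 0.0403), and Cd46, a complement regulator, at 2.23, 4.78 and 2.86 against 0.416, 0.793 and 0.594 CPM (-2.42 ± 0.26, adjusted p = 0.0443, and 0.0631 without the replicate block). The span of Cd46 overlaps other annotated genes on both strands, among them A330023F24Rik, Mir29b-2 and Mir29c, so the source of its reads is uncertain. H2-M5, a nonclassical major histocompatibility gene, had 169 counts in the total libraries and 4 on ribosomes, a ratio of 56.3 (exact 95% interval 21.6 to 209, counting error only). Col27a1 (-1.90), Col7a1 (-1.92) and Col20a1 (-1.85) fell too; these collagens were singled out after their values were seen and are not among the 43 matrix genes listed, of which 0 were called.

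Several of the RNAs that fell are hosts of microRNAs, a pattern noticed in these data. Among the 96 called genes that are not microRNA genes themselves, 14 (14.6%) hold an annotated microRNA gene on their own strand, compared with 703 of 14612 tested genes (4.81%). Within protein-coding genes the counts were 8 of 53 (15.1%) against 661 of 13117 (5.04%), and within long noncoding genes 6 of 24 (25%) against 39 of 815 (4.79%). Among those 6, Gm28119 lies inside 3110039I08Rik on the same strand and both were counted for Mir125b-1, so they are not separate loci. The part played by gene length in these shares was not tested. Dnm3os, an antisense transcript within Dnm3, carries Mir199a-2 and Mir214, and Spaca6, a sperm membrane protein gene, has Mir99b, Mirlet7e and Mir125a on its strand. The 5p arms these host regions give are shown with the seed (bases 2 to 8) in capitals, from RefSeq with GRCm38.p6 coordinates, on the plus strand of chromosomes 1 and 17. The small RNAs themselves were not measured, and no 2 of these 5 share a seed.
mmu-miR-199a-5p: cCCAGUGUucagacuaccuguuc
mmu-miR-214-5p: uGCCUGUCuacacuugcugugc
mmu-miR-99b-5p: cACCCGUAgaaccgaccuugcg
mmu-let-7e-5p: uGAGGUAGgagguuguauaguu
mmu-miR-125a-5p: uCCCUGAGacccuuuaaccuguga

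The host of the first of these, Dnm3os, stood at 182, 379 and 314 CPM in total RNA and at 43.0, 67.6 and 49.6 CPM on ribosomes (-2.41 ± 0.17, adjusted p = 0.0403). Total library 1 was lowest, and still above every ribosome-associated library. Spaca6 stood at 27.2, 64.6 and 63.9 against 6.57, 10.1 and 8.05 CPM (-2.58 ± 0.23, adjusted p = 0.0403).

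No gene rose past the threshold. For naming, genes above 0 needed at least 1 CPM, a settled symbol, no pseudogene class and the same sign in all pairs. Of these, the 12 with the smallest p were Sumo2, Fcgr3, Crcp, Oard1, Omd, Hfe, Rnase4, Car13, Dynlt3, Hmgn2, Glrx and Cd53. Their log2 fold changes were 0.63 to 0.89, with adjusted p of 0.097 to 0.13. Sumo2, a small protein that is attached to other proteins, stood at 65.9, 80.1 and 76.1 CPM in total RNA and at 119, 127 and 120 CPM on ribosomes, so the groups did not overlap, yet its 0.72 ± 0.13 did not pass (adjusted p = 0.097). Crcp, a subunit of RNA polymerase III, stood at 16.9, 19.1 and 18.2 against 36.0, 32.7 and 27.9 CPM (0.82 ± 0.16, adjusted p = 0.106). Rnase4, a secreted ribonuclease, stood at 157, 168 and 118 against 283, 265 and 171 CPM (0.68 ± 0.14, adjusted p = 0.112), and Dynlt3, a dynein light chain, at 108, 107 and 89.4 against 188, 156 and 133 CPM (0.64 ± 0.13, adjusted p = 0.12).

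In messages of the translation machinery, pair 1 differed from pairs 2 and 3. Ribosomal proteins and several translation factors are made from messages of the terminal oligopyrimidine (TOP) class, whose first bases are a run of pyrimidines and whose entry into polysomes is set by the mTOR pathway. Of 48 large subunit genes tested, 0 were called in either direction with all 3 pairs. Their median was 0.38, from pair medians of -0.28, 0.83 and 0.60. For the 34 small subunit genes the count was also 0, the median 0.36 and the pair medians -0.42, 0.88 and 0.62. In pair 1, 10 of 48 and 3 of 34 were above 0, in pair 2, 46 and 33, and in pair 3, 47 and 33. Without pair 1, 43 of 48 and 32 of 34 were higher and 1 of each was lower, against 27.7% higher and 27.9% lower over all genes. The control cells gave 46 and 33 higher, against 24.3% of genes higher and 25.9% lower, with list medians of 0.77 and 0.80.

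The pyrimidine runs could be looked for near the annotated starts. RefSeq start regions (GRCm38.p6) were searched on the gene's strand, 50 bases to each side of the start, for a run of at least 8 bases that are each C or T. Such a run was present in 28 of the 30 large subunit genes with a single start region (93.3%), in 16 of 22 small subunit genes (72.7%) and in 7 of 13 TOP-type translation factors (53.8%), compared with 2571 of 8148 tested protein-coding genes (31.6%). On the other strand the shares were 33.3%, 9.09%, 38.5% and 34.2%. Collagens and fibrillar matrix genes also reached 54.5%, and respiratory chain genes 29.3%. A run is a description of these letters, and annotated starts can lie away from the start used in these cells. The sequences shown, each 30 bases of the gene's strand, are of members described here that have such a run (in capitals). The class is defined by a run at the first bases of the message, which a run elsewhere in the searched region does not show. Relative to the annotated start (negative before it), the runs begin at 27 in Rpl4, -18 in Rpl31, -22 in Rps25, 23 in Rps7 and -5 in Eef1a1. The members shown were picked for having a run. Among other members looked up, Rps10 had a run of 13 that begins at -3. The longest runs of Tpt1 and Pabpc4 were 6 and 4, below the minimum.
Rpl4, chr9:64173405-64173434, plus: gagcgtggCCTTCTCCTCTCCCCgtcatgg
Rpl31, chr1:39367824-39367853, plus: ctcgccacaCCTCTTCCTCCTCgcctcccc
Rps25, chr9:44407684-44407713, plus: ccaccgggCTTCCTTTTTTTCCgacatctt
Rps7, chr12:28635911-28635940, minus: ctgtccccaCCTCTTTTCTTCCgccacccg
Eef1a1, chr9:78481710-78481739, minus: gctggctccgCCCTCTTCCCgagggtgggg

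Values of these members show where the difference between pairs lay. Rpl4 stood at 1254, 828 and 845 CPM in total RNA and at 1541, 1380 and 1308 CPM on ribosomes (0.55 ± 0.17, adjusted p = 0.221). Rps7 stood at 691, 356 and 367 CPM in total RNA and at 730, 679 and 628 CPM on ribosomes (0.60 ± 0.22, adjusted p = 0.286). In both, total library 1 was the highest total library, and the 3 ribosome-associated libraries lay close together. Rps25 stood at 506, 260 and 257 against 543, 500 and 421 CPM. Rpl31 stood at 526, 289 and 281 against 627, 590 and 445 CPM. In both of these, total library 1 was again the highest total library, but ribosome-associated library 3 lay below the other ribosome-associated libraries. Rps10 was the small subunit gene furthest below 0, at 8.88, 4.90 and 5.83 against 2.17, 1.79 and 2.08 CPM (-1.66 ± 0.22, adjusted p = 0.0602), a low level for a ribosomal protein message. Ribosomal protein genes have many near-identical pseudogene copies, and the notes read here do not say how reads matching several places were counted, so single members are uncertain.

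The 20 TOP-type translation factors had a median of 0.29 (pairs 0.04, 0.46 and 0.44), 0 called, and 19 higher without pair 1 (27.7% of all genes). Eef1a1, the elongation factor that brings aminoacyl-tRNA to the ribosome, differed from the ribosomal proteins in being level across total libraries, at 5103, 5158 and 5200 CPM, with 7851, 7305 and 7128 CPM on ribosomes. Its 0.53 ± 0.17 did not pass (adjusted p = 0.234). Tpt1, a growth-related TOP message, stood at 2036, 1271 and 1079 CPM in total RNA and at 2218, 2268 and 1693 CPM on ribosomes (0.54 ± 0.20, adjusted p = 0.298). The 39 other initiation and termination factors had a median of 0.10, with 0 called.

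In other gene groups, too, pair 1 lay on the other side of 0 from pairs 2 and 3. The 75 nuclear-encoded respiratory chain subunits had pair medians of -0.61, 0.62 and 0.45 and a list median of 0.17, and the 77 mitochondrial ribosomal proteins had -0.43, 0.42 and 0.37 with a list median of 0.10. Proteasome subunits, 38 in all, had -0.45, 0.39 and 0.33, and 21 selenoproteins had -0.30, 0.50 and 0.43. In each of these 4 lists 0 genes were called with all pairs, and without pair 1 the numbers higher were 70, 66, 34 and 14 and lower 2, 1, 0 and 1, against 27.7% higher and 27.9% lower over all genes. The 36 endoplasmic reticulum chaperones and translocon genes had -0.12, 0.35 and 0.28, with 33 higher without pair 1. Collagens and fibrillar matrix genes, made on the endoplasmic reticulum, ran the other way: the 43 genes had 0.47, -0.27 and -0.29, with 9 higher and 30 lower without pair 1 and 0 called with it.

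**Figure D4:**
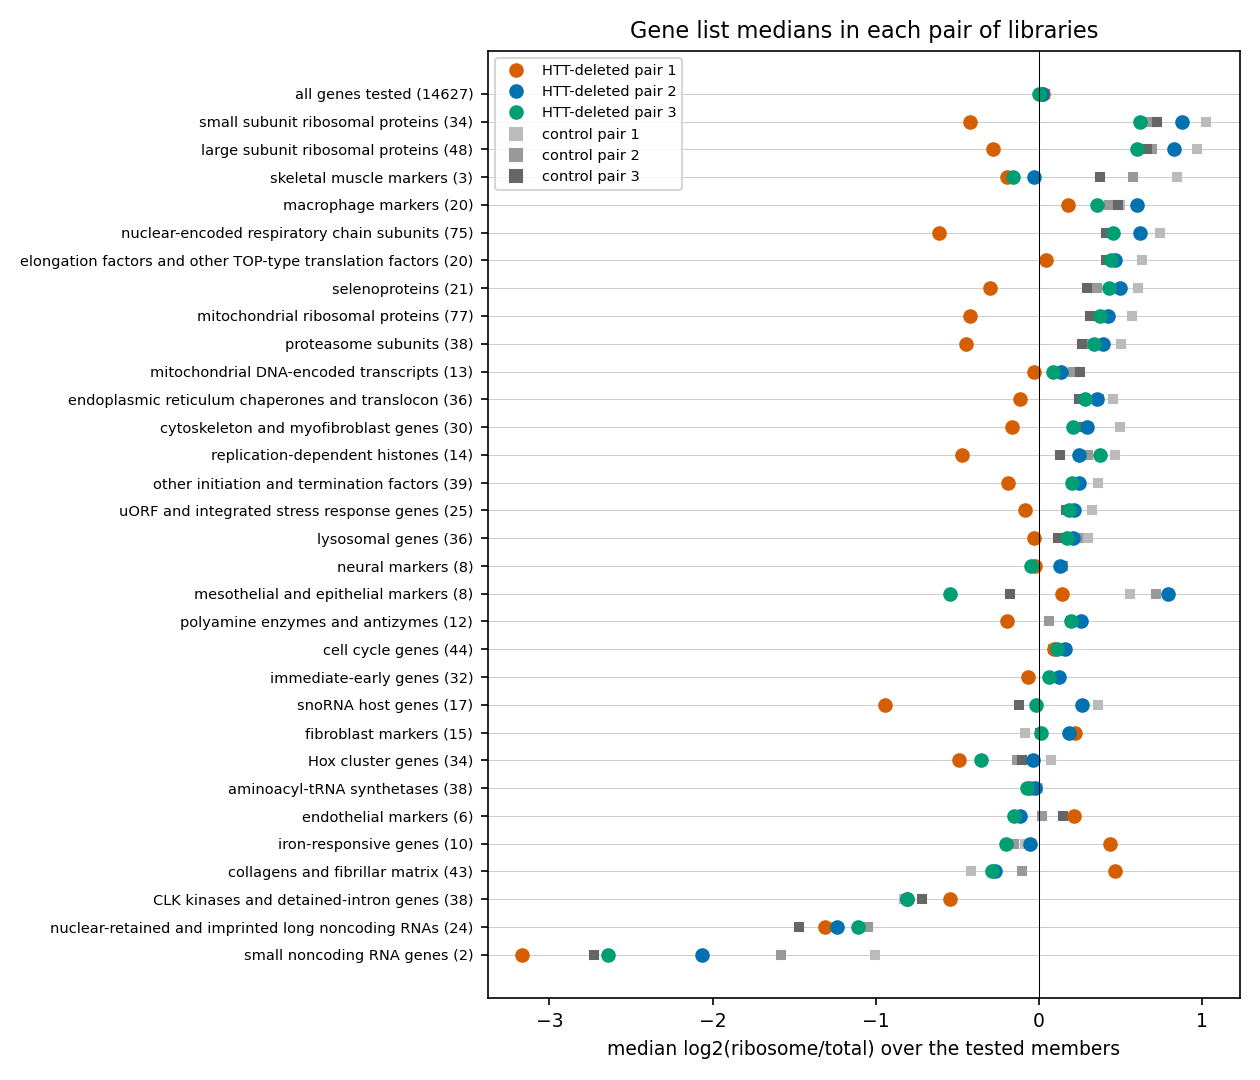
For each gene list (number of tested members in brackets), the median log2 ribosome to total ratio is drawn for HTT-deleted pairs 1 to 3 (circles) and control pairs 1 to 3 (grey squares), ordered by the control fit. Pair 1 lies on the other side of 0 from the remaining pairs for ribosomal proteins, respiratory chain subunits and collagens, and alongside them for the long noncoding RNAs and the CLK and detained-intron genes.

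The remaining lists also held 0 called genes. Medians were 0.12 for 25 upstream reading frame and stress response genes, 0.06 for 12 polyamine genes, 0.02 for 10 iron-responsive genes, -0.01 for 32 immediate-early genes, 0.11 for 44 cell cycle genes, 0.14 for 36 lysosomal genes, 0.08 for 30 cytoskeleton genes, 0.20 for 14 replication-dependent histones and -0.20 for 34 Hox genes. The 38 aminoacyl-tRNA synthetase genes had a median of -0.02, and the member with the smallest p was Cars2, the mitochondrial cysteine enzyme, at 20.9, 23.7 and 22.9 CPM in total RNA and 11.7, 10.7 and 10.5 CPM on ribosomes (-1.04 ± 0.15, adjusted p = 0.0658). The 13 tested transcripts of mitochondrial DNA had a median of 0.23 with pairs, weighing transcripts equally, at -0.03, 0.14 and 0.08. They include ribosomal RNA, which is not translated, beside messages that are translated inside the organelle. Members differed in where total library 1 lay. It was the lowest for mt-Co1, a subunit of cytochrome c oxidase, which stood at 2395, 6747 and 6312 CPM in total RNA and at 8795, 8774 and 8547 CPM on ribosomes (0.89 ± 0.36, adjusted p = 0.324). It was the highest for mt-Rnr1, a mitochondrial ribosomal RNA, at 531, 328 and 290 CPM against 214, 237 and 177 CPM (-0.83 ± 0.20, adjusted p = 0.172).

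Coding length ordered the ratios across the 13117 protein-coding genes, with the sign of pair 1 opposite to the rest. Spearman's rho between coding length and the log2 ratio was 0.24 in pair 1, -0.62 in pair 2 and -0.60 in pair 3, compared with -0.69, -0.55 and -0.54 in the control pairs. In the lowest decile of genes by coding length, 111 to 549 bases, the median log2 ratio was -0.32 in pair 1, 0.48 in pair 2 and 0.41 in pair 3. In the highest decile, from 3522 bases, it was 0.23, -0.52 and -0.51. These values describe genes within libraries and carry no test.

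**Figure D5:**
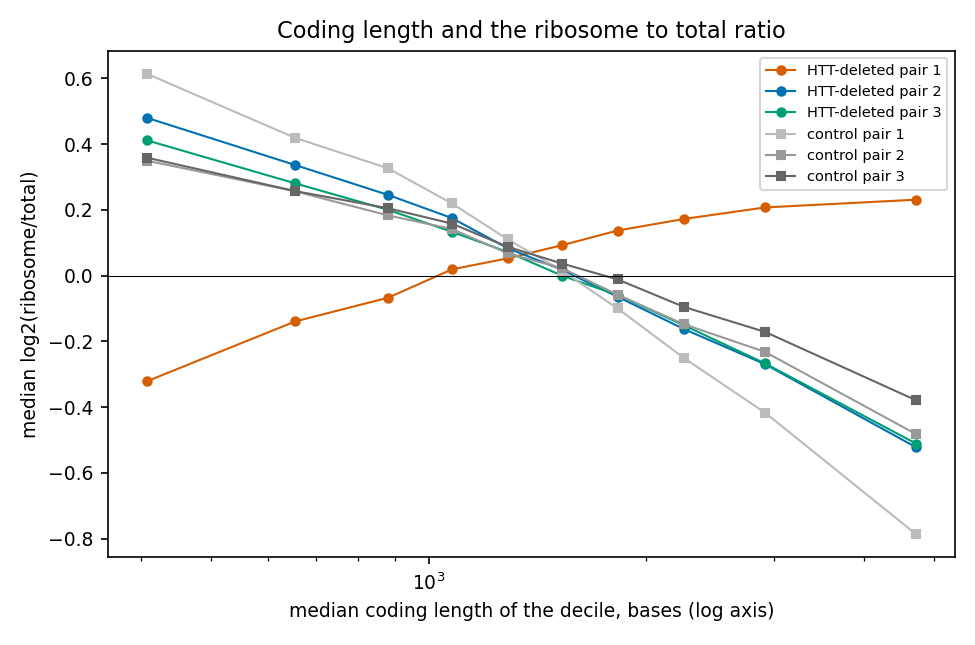
Median log2 ribosome to total ratio in deciles of protein-coding genes by coding length, against the median coding length of each decile in bases (log axis), for the 3 HTT-deleted and 3 control pairs. HTT-deleted pair 1 climbs from -0.32 to 0.23, and the other 5 pairs descend.

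Marker genes showed fibroblasts with macrophages present. All 15 fibroblast markers were tested, with a median of 0.04 and 0 called, and their summed level was 28874, 52466 and 42121 CPM in total RNA and 33718, 44183 and 34626 CPM on ribosomes. All 20 macrophage markers were tested as well: their sum was 8201, 2160 and 3297 CPM in total RNA and 9716, 3273 and 4251 CPM on ribosomes, so culture 1 held the most in both fractions. In bulk RNA, fewer cells of a type and less RNA per cell cannot be told apart. The macrophage list had a median of 0.29 and pair medians of 0.18, 0.60 and 0.35, with 0 called. Fcgr3, an immunoglobulin receptor of macrophages, stood at 53.5, 18.9 and 22.2 CPM in total RNA and at 96.5, 34.3 and 32.3 CPM on ribosomes (0.75 ± 0.15, adjusted p = 0.105). The part of the cell mixture in the ratios of pair 1 was not tested. Endothelial sums were 85.8 to 136 CPM, mesothelial and epithelial sums 7.46 to 26.2 CPM, neural sums 167 to 319 CPM and skeletal muscle sums 3.94 to 18.1 CPM, with 6 of 12, 8 of 11, 8 of 14 and 3 of 11 markers tested and 0 called. Cldn5 of endothelium and Myod1 and Myf5 of muscle had 0 counts in all 6 libraries.

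The same contrast in control cells was set beside these values. There, 3647 genes were higher (24.3%) and 3877 lower (25.9%) of 14990 tested, and 96 of the 97 genes that fell in HTT-deleted cells (99%) were lower as well, which is 2.48% of the control list; the remaining 1 was not tested in control cells. Kcnq1ot1 had -4.99 in control cells against -5.06, Xist -6.54 against -6.05, Meg3 -4.03 against -4.42, Ccnl2 -2.01 against -1.82 and Clk1 -1.55 against -1.36. The difference between the HTT-deleted and the control contrast was tested directly, in 1 fit of all 12 libraries with the culture as a block. Of 15574 genes, 0 passed (0%), 150 had an unadjusted p under 0.05, and the lowest adjusted p was 0.859. Voom with sample quality weights also gave 0. The smallest p belonged to Gm12366, a processed pseudogene, with a difference of -3.01 ± 0.64 (adjusted p = 0.859), followed by E330037G11Rik, Gm43300, Gm10320 and Rps15-ps2, none of which passed. A difference that does not pass is not shown to be absent: for Htt it was 0.29 ± 0.29.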

How the data were processed

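The authors deposited 1 file of raw read counts per gene for each of the 12 libraries. The submitters' processing notes name FastQC, STAR 2.7.2b, HTSeq 0.11.1 and GRCm38; they do not give the annotation release or the strand setting. The 5 summary entries of each file were dropped (of reads in genes, in no gene or ambiguous, 6.94% to 7.73% lay in no gene in the HTT-deleted total libraries and 2.64% to 3.30% in the ribosome-associated ones). Of 55487 gene identifiers, 55394 matched GENCODE M21 for names, classes and lengths, and 93 did not. Counts were tested with edgeR 4.0.16 in R 4.3.3 (filterByExpr, TMM, robust quasi-likelihood fit, replicate number as a block, Benjamini-Hochberg adjusted p under 0.05 over all tested genes). Limma 3.58.1 and DESeq2 1.42.0 gave alternatives, as did other scalings, filters and libraries left out. Scripts were tested on simulated data, in which no library was made to stand apart as total library 1 did. CPM use the TMM-scaled library sizes, and pair ratios are on the log2 scale with a pseudocount of 0.5. Both RNAs of a number came from 1 suspension, and same-numbered libraries deviated together from their group means (r = 0.40, 0.63 and 0.65 over 13451 genes). With the block, p-values measure the spread of the ribosome to total ratio between pairs, moderated towards that of other genes. They do not measure the spread between cultures within a fraction. Some of the pairs may be passages of 1 culture. Intervals on counts cover counting error only.

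Named genes are Htt and, among called genes of at least 1 CPM with a settled symbol, no pseudogene class and 1 sign in all pairs, the 12 with the largest change and the 6 of at least 100 CPM with the smallest p in each direction, or the 12 with the smallest p where fewer than 5 were called. Each of the 31 lists gives its 3 members with the smallest p in its direction and 1 in the other, and the difference from control its 5 smallest p. The comparison, lists and rules were chosen with earlier results of these data known. Further genes are named as examples where the text says so, or as called members of a list.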

Additional observations from a re-analysis of the deposited data

Results flagged for a closer look

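In the skeletal muscle markers, the median log2 ratio over the 3 tested members was below 0 in each HTT-deleted pair (-0.20, -0.03 and -0.16) and above 0 in each control pair, and the median of the fitted differences, HTT-deleted minus control, was -0.59. The medians of the fits themselves were both above 0, at 0.0967 in HTT-deleted and 0.707 in control cells. The list, 1 of 31, was picked for its difference between HTT-deleted and control cells. Its 11 markers summed to 3.94 to 18.1 CPM in the HTT-deleted libraries, a low level. The difference of the list was not tested.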

How the results depend on the processing

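No gene was called higher and 97 lower with all pairs blocked by replicate number. Without the replicate block the counts were 0 and 131, and 74 of the 97 remained called. Counts of higher and lower genes moved most with no filter (3 and 419), with at least 5 CPM in 3 libraries (0 and 1), with DESeq2 (24 and 538), with voom and sample quality weights (3770 and 3955) and with all 12 libraries in 1 fit (493 and 1281). The quality weights were 0.128 and 0.133 for the libraries of pair 1 and 2.38 to 3.18 for the others. With the block, both libraries of a pair are weighted nearly alike, so the weights do not tell which library of a pair differed. Leaving out a pair gave 12 to 4149 genes higher and 331 to 4184 lower, the highest counts without pair 1. RLE scaling (0 and 94), upper quartile scaling (0 and 83) and voom (0 and 114) gave similar counts. All of the 97 that were tested were below 0 under each of these settings. Under the filter of 5 CPM, the named genes that no longer passed had adjusted p of 0.0522 to 0.0727 with nearly the same fold changes. Without the block Rn7sk, Cd46, Col7a1 and Col20a1 did not pass (adjusted p of 0.0568 to 0.0774), and with upper quartile scaling Mirg and Rn7sk did not (0.0521 and 0.0510). The median of the 3 skeletal muscle markers changed from 0.0967 to -0.0193 without the replicate block, -0.818 with no filter and -0.0854 with all 12 libraries, and ranged from -0.194 to 0.0434 when a pair was left out. These medians run over the members that each fit tested: over the same 3 members, the median without pair 1 was 0.165. The cause of these changes was not tested. The difference from control cells had 0 called genes under each alternative run.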
